A study of Mus musculus with 40 samples.

Results

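Cdh5, Pecam1, Emcn, Vwf, Erg, Egfl7, Cd34, Ptprb, Robo4 and Esam are genes that most blood vessel endothelium expresses, and their RNA was followed here in the laser-injured mouse eye. They were taken by symbol from a table of normalized read counts that lists 54307 genes. Each of the 10 symbols matched 1 identifier, and all 10 passed the filter on low values in both tissues. RNA was sequenced from retina and from central choroid of 20 mice, 3 days after 6 laser spots had been set in each eye to start choroidal neovascularization (CNV). The study asked whether the loss of TGFβ signaling in endothelial cells, with or without mononuclear phagocytes (MP, the microglia and macrophages of the eye), alters this process. The 40 libraries form 8 groups of 5 mice, by tissue, genotype and diet.

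All mice carried floxed *Tgfbr2* alleles on a C57BL/6J background, were of both sexes and received tamoxifen eye drops for 5 days from an age of 6 to 7 weeks. In the *Tgfbr2*ΔEC mice (labelled CrePos) the drops activated a tamoxifen-inducible Cre recombinase under the promoter of *Cdh5*, which is itself one of the genes described. The controls (labelled CreNeg) were littermates without Cre that received the same drops. The + PLX groups were fed PLX5622, an inhibitor of the receptor CSF1R on which MP depend, from the first tamoxifen dose, and the – PLX groups received control chow. The groups are named control – PLX (mice 1 to 5), *Tgfbr2*ΔEC – PLX (mice 6 to 10), control + PLX (mice 11 to 15) and *Tgfbr2*ΔEC + PLX (mice 16 to 20).

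Endothelial cells form the inner wall of every blood vessel. The choroid is a dense vascular sheet outside the retinal pigment epithelium, with a fenestrated capillary layer, whereas the retina is a thin neural tissue with sparse, tight capillaries. The proteins divide by role. VE-cadherin (*Cdh5*), PECAM-1 (*Pecam1*) and the immunoglobulin protein ESAM (*Esam*) sit at the contacts between endothelial cells, and the phosphatase VE-PTP (*Ptprb*) acts on the receptor TIE2 and on VE-cadherin. Endomucin (*Emcn*) and CD34 (*Cd34*) are sialomucins of the cell surface, *Robo4* encodes a roundabout receptor that restrains leakage, von Willebrand factor (*Vwf*) and EGFL7 (*Egfl7*) are secreted, and *Erg* encodes an ETS transcription factor that maintains endothelial identity. Several are not limited to endothelium. Platelets also carry PECAM-1, von Willebrand factor and ESAM, and blood progenitors and some fibroblasts carry CD34.

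Positions are on GRCm39. *Cdh5* (ENSMUSG00000031871) lies at chr8:104828231-104871143 on the plus strand, *Pecam1* (ENSMUSG00000020717) at chr11:106543689-106641454 on the minus strand and *Emcn* (ENSMUSG00000054690) at chr3:137046794-137138999 on the plus strand. *Vwf* (ENSMUSG00000001930) lies at chr6:125523737-125663642 on the plus strand, *Erg* (ENSMUSG00000040732) at chr16:95160028-95387452 on the minus strand and *Egfl7* (ENSMUSG00000026921) at chr2:26468286-26486789 on the plus strand. *Cd34* (ENSMUSG00000016494) lies at chr1:194621029-194647172 and *Ptprb* (ENSMUSG00000020154) at chr10:116111428-116225440, both on the plus strand. *Robo4* (ENSMUSG00000032125, chr9:37313193-37326411) and *Esam* (ENSMUSG00000001946, chr9:37439344-37449615) are neighbours on the plus strand of chromosome 9, 112933 bases apart with 6 annotated genes between them. All 10 are protein-coding, and each value below counts reads over a whole gene. *Egfl7* overlaps the protein-coding *Gm20532* on its own strand, which averaged 1.68 normalized counts in choroid and 3.30 in retina. It also overlaps *Agpat2* on the other strand, which averaged 482 normalized counts in choroid and 24.7 in retina. The libraries were stranded, but whether the quantification used strand is not given in the sources used here, so the *Egfl7* values carry this uncertainty. The same holds for *Cd34*, which overlaps the long non-coding RNA gene *Gm16897* on the other strand (8.92 normalized counts in choroid and 25.3 in retina, on average).

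Because an ETS factor is among the genes, the promoters of 5 of them were searched for the core GGAA of ETS sites and for longer forms of it, on both strands. No promoter window was at hand for *Cdh5*, *Pecam1*, *Vwf*, *Ptprb* and *Esam*. The 250 bases before a RefSeq gene start were searched for *Emcn*, *Erg*, *Egfl7*, *Cd34* and *Robo4*, and a gene with several starts had a window for each (3 for *Erg*, 3 for *Egfl7*, 1 for the others). All 5 held CAGGAAG or its reverse complement CTTCCTG in at least 1 window, as did 12.1% of 27025 genes in any of theirs. *Erg* held it in 1 of its 3 windows. *Egfl7* held it in 2 of 3, and the window not printed has 2 matches, 90 and 49 bases before its start. The same matches contain AGGAAG (32.3% of genes) and GGAA (94.2% of genes), CGGAAG was in 0 of 5 (15.3% of genes), and TATAAA was in *Erg* alone (14.3% of genes). CAGGAAG was chosen after the windows had been looked at, so the count is a description, and a match does not show binding. The stretches around it are printed on the strand of the gene on GRCm38.p6, with the motif or its reverse complement in capitals.
Emcn, chr3:137340893-137340922, plus strand, 174 bases before the start: aagaagggtctCTTCCTGttcaaatcccat
Erg, chr16:95459370-95459399, minus strand, 40 bases before the start: aatagaaacctCTTCCTGccattggctgac
Egfl7, chr2:26583773-26583802, plus strand, 81 bases before the start: gagaacacacaCAGGAAGtccggcgggaag
Cd34, chr1:194938668-194938697, plus strand, 142 bases before the start: gtacacagtggCTTCCTGccacacttaaaa
Robo4, chr9:37401911-37401940, plus strand, 50 bases before the start: tgagggccaggCAGGAAGcatccgtttcct

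The libraries were first checked against their labels. Normalized counts summed to 24718469 to 25956180 per choroid and 22256892 to 24507335 per retina, which are not read depths. *Tgfbr2* itself, read over the whole gene, lay at 8729 and above in choroid and showed no passing difference between genotypes (log2 difference –0.05 without and 0.02 with PLX5622 in choroid, –0.32 and –0.07 in retina; limma adjusted p from 0.92 to 1.00). In choroid, 10 neural retina genes together ran from 4014 to 138483 normalized counts, the 5 *Tgfbr2*ΔEC – PLX choroids from 48630 to 138483, and by the mean log2 value of these genes the choroids of mice 9 (12.91), 15 (12.86) and 6 (12.62) stood highest, with the next at 11.74. By the mean log2 value of 6 melanocyte genes, the retinas of mice 9 (6.81) and 1 (6.16) stood highest, followed by that of mouse 4 (5.66) and the others at 3.15 to 5.46. With PLX5622, 10 MP genes together went from 31067–38163 to 7679–10821 in choroid and from 1269–3255 to 47.2–165 in retina.

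All 10 genes were far higher in choroid than in retina, from 3.79-fold for *Esam* to 126-fold for *Emcn*. *Emcn* ran from 3684 to 5690 normalized counts in the 20 choroids (median 4109) and from 15.1 to 51.1 in the 20 retinas (median 33.7), so that a retina held on average 0.801% of the choroid level. *Cd34*, the other sialomucin, ran from 4965 to 7258 in choroid (median 5932) and from 88.7 to 274 in retina (median 168). The choroid and retina libraries did not overlap for either gene.

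Among the junction genes, *Cdh5* ran from 2980 to 5740 in choroid (median 4145) and from 82.4 to 320 in retina (median 134). *Pecam1* ran from 2523 to 4071 (median 3285) and from 194 to 322 (median 277). *Esam* ran from 986 to 1899 (median 1499) and from 322 to 491 (median 393). *Esam* was thus the gene whose tissues came nearest, with 986 in its lowest choroid, that of mouse 1, and 491 in its highest retina. *Ptprb* ran from 4724 to 9827 in choroid (median 7184) and from 384 to 995 in retina (median 611).

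The secreted *Vwf* ran from 5265 to 16502 in choroid (median 7226) and from 105 to 763 in retina (median 237). Its ratio of highest to lowest was the largest of the 10 in both tissues (3.13 and 7.26), but without mouse 12 the highest choroid measured 9604 and the ratio was 1.82, below *Robo4* (2.67), *Ptprb* (2.08), *Cdh5* (1.86) and *Egfl7* (1.85). *Egfl7* ran from 2204 to 4067 (median 2983) and from 71.6 to 393 (median 171). The transcription factor gene *Erg* and the receptor gene *Robo4* remained. *Erg* ran from 1132 to 1830 in choroid (median 1474) and from 17.9 to 94.5 in retina (median 49.6), and *Robo4* from 482 to 1286 (median 784) and from 32.2 to 154 (median 48.4).

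**Figure D1:**
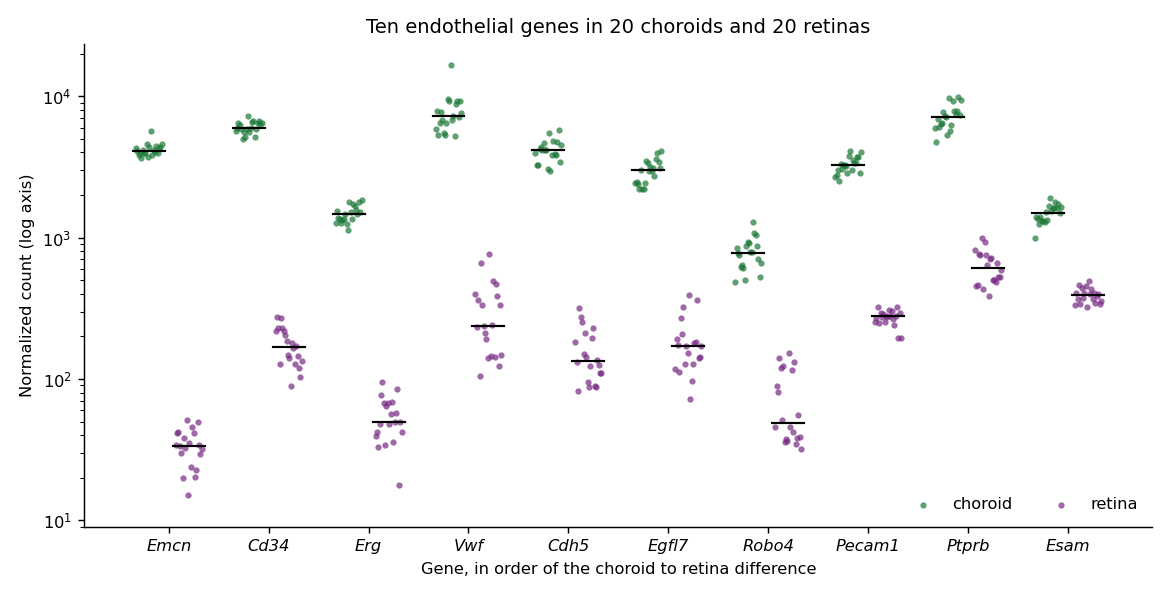
Normalized counts of the 10 genes in each of the 40 libraries, with a log axis; each point is 1 library, green for choroid and purple for retina, and bars mark the median of 20. For every gene all 20 choroids lie above all 20 retinas, with the widest space between the tissues for *Emcn* and the narrowest for *Esam*.

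In one limma fit of all 40 libraries on log2(normalized count + 1), all 10 genes were higher in choroid at an adjusted p of 0.05 or less, the threshold used throughout, beside 40.8% of the 24317 genes tested. This fit did not pair the 2 tissues of a mouse. Every choroid exceeded every retina for all 10, beside 18.6% of genes. The log2 difference (choroid minus retina) was 6.98 for *Emcn* (SE 0.11, adjusted p = 1.87e-36), 5.17 for *Cd34* (SE 0.08, 36-fold, adjusted p = 5.1e-36) and 1.92 for *Esam* (SE 0.05, adjusted p = 6.16e-29). *Erg* (4.83), *Vwf* (4.82) and *Cdh5* (4.81) lay together at about 28-fold, followed by *Egfl7* at 4.09 (17.1-fold). *Robo4* (3.59), *Pecam1* (3.59) and *Ptprb* (3.54) lay together at about 12-fold. The median over the 10 genes was 4.45, beside –0.01 over all genes tested.

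The order of these differences was read within each mouse, from its own choroid and retina. *Emcn* exceeded *Cd34* in 20 of 20 mice by 1.81 ± 0.60 log2 units (SD, n = 20), and *Ptprb* exceeded *Esam* in 20 of 20 by 1.62 ± 0.51. No other neighbours in the order were set apart by more than their SD, and they kept their order in 10 to 16 of 20 mice. *Emcn* at the top and *Esam* at the bottom are therefore the 2 places in the order that stand clear of their neighbours. Some genes farther apart in the order were also set apart. *Cd34* exceeded *Egfl7* in 20 of 20 mice by 1.08 ± 0.56, and *Cdh5* exceeded *Ptprb* in 20 of 20 by 1.27 ± 0.38. In bulk tissue, fewer endothelial cells and less RNA per endothelial cell cannot be told apart.

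**Figure D2:**
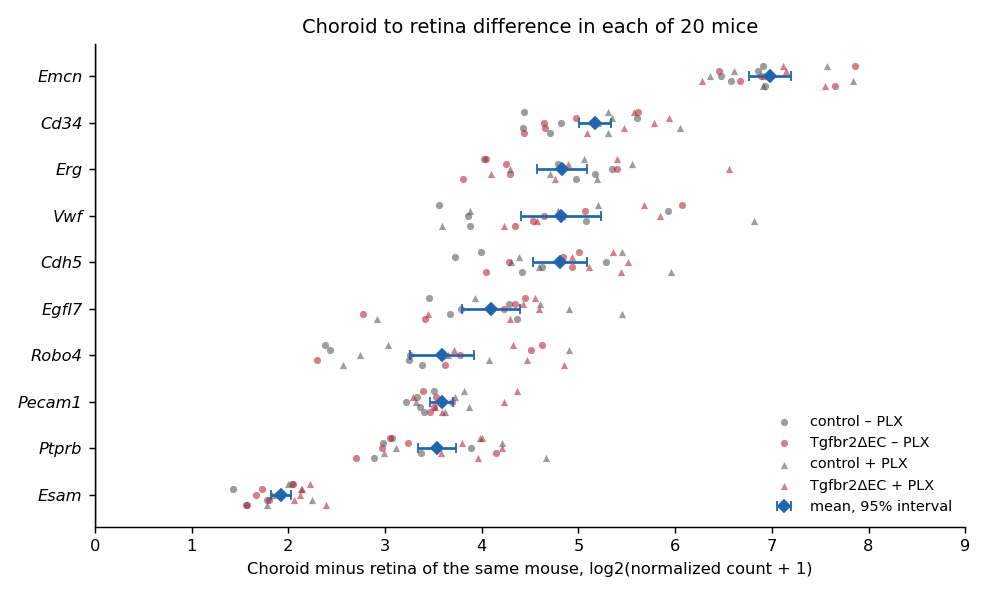
Log2 difference between choroid and retina within each mouse for the 10 genes (circles without and triangles with PLX5622, grey for controls and red for *Tgfbr2*ΔEC, 20 mice a gene) with the fitted difference and its 95% interval. *Emcn* stands above the other genes at 6.98 and *Esam* below them at 1.92, while the genes between overlap with their neighbours.

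Of a list of 30 other endothelial genes, 29 were also called higher in choroid (median log2 difference over the 30 genes 4.18), and whether the lists differ was not tested. *Ets1* (4.23), the gene of another ETS factor, *Tek* (3.73), the gene of TIE2, and *Tie1* (4.95), an endothelial receptor tyrosine kinase, had the lowest p-values. The exception was *Kdr*, the gene of VEGF receptor 2, at 0.12 (95% interval –0.02 to 0.26, adjusted p = 0.111 in limma). Other cell types of the choroid also differed between the tissues. A list of 6 melanocyte genes in retina was at 0.236% of its choroid level, 6 fibroblast genes at 0.120% and 6 skeletal muscle genes at 0.127%. Mural cell genes were at 4.71%, retinal pigment epithelium genes at 4.86% and MP genes at 5.11%, and the other lists apart from neural retina at 12.7% to 70.8%, the 30 other endothelial genes at 23.4% among them. The share of a list is taken from its summed counts, in which its most abundant genes weigh most. The median log2 difference was 4.18 over the 30 genes and 4.45 over the 10. The 70.8% belongs to 6 lymphatic endothelial genes, whose log2 differences ran from –5.30 to 4.87 (median 1.88). *Emcn* (0.801%), *Cd34* (2.88%), *Erg* (3.65%), *Cdh5* (3.80%) and *Vwf* (3.97%) lay between the first 3 lists and the mural list. The shares of *Egfl7* (6.28%), *Pecam1* (8.30%), *Ptprb* (8.71%) and *Robo4* (9.23%) were larger still, and that of *Esam* was 26.3%. The part of choroid RNA carried into the retina samples in these shares was not tested.

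Levels were compared between genes only per kilobase of the canonical transcript, as normalized counts per kb. In choroid the order was *Cd34* (2449 ± 243, SD, n = 20), *Egfl7* (2032 ± 392), *Emcn* (1601 ± 166), *Cdh5* (1027 ± 185), *Pecam1* (890 ± 118), *Vwf* (872 ± 285), *Esam* (787 ± 116), *Ptprb* (607 ± 124), *Erg* (465 ± 62.6) and *Robo4* (159 ± 41.5). *Pecam1* and *Vwf*, and *Vwf* and *Esam*, kept this order in 12 and 11 of 20 choroids and were not set apart, and the other neighbours kept it in 17 to 20. In retina *Esam* came first (207 ± 24.9), then *Egfl7* (128 ± 59.8), *Pecam1* (73.8 ± 9.35), *Cd34* (70.5 ± 21.7) and *Ptprb* (52.9 ± 14.3). *Cdh5* (39 ± 17.2), *Vwf* (34.6 ± 20.6), *Erg* (17 ± 6.03), *Robo4* (14.7 ± 8.58) and *Emcn* (12.8 ± 3.81) followed.

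*Emcn* was therefore the third gene per kb in choroid and the last in retina, and *Esam* went from seventh to first. *Pecam1* and *Cd34*, *Erg* and *Robo4*, and *Robo4* and *Emcn* were not set apart in retina, where they kept their order in 12, 12 and 11 of 20 libraries, and the other neighbours kept it in 14 to 18. Dividing by all annotated exon bases in place of the canonical transcript moved *Egfl7* from rank 2 to rank 8 in choroid and *Cdh5* from rank 4 to rank 1. *Robo4* stayed lowest in choroid, and *Esam* highest and *Emcn* lowest in retina, under both lengths.

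The spread between mice of one group also differed between the genes. In choroid the within-group SD on the log2 scale was 0.14 for *Emcn*, *Esam* and *Erg*, 0.15 for *Cd34* and *Pecam1*, 0.20 for *Egfl7*, 0.25 for *Ptprb*, 0.27 for *Cdh5*, 0.35 for *Robo4* and 0.39 for *Vwf*. In retina it was lowest for *Esam* (0.17) and *Pecam1* (0.20) and highest for *Egfl7* (0.66), *Robo4* (0.67) and *Vwf* (0.88). *Vwf*, whose protein endothelium stores in Weibel-Palade bodies, had the largest SD in both tissues. In choroid this was lost without mouse 12, which measured 16502 (SD 0.28 for *Vwf* and 0.35 for *Robo4*), and without mouse 15, where both genes were at 0.35 and *Robo4* came first. In retina *Vwf* stayed first whichever mouse was left out.

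Feeding PLX5622 went with higher choroidal levels of part of the genes. Over both genotypes, *Esam*, *Erg*, *Egfl7* and *Pecam1* rose, by 1.18- to 1.27-fold, 4 of 10 genes beside 2.07% of the 23619 genes tested that were called higher. All 10 estimates were positive (median log2 difference 0.28, beside 0.00 over all genes tested). The 10 genes share the same 20 libraries and are not independent.

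*Esam* measured 986, 1390, 1363, 1244 and 1406 in the control – PLX choroids and 1682, 1899, 1543, 1630 and 1620 in the control + PLX choroids. It measured 1312, 1312, 1287, 1509 and 1336 in the *Tgfbr2*ΔEC – PLX choroids and 1797, 1613, 1736, 1490 and 1658 in the *Tgfbr2*ΔEC + PLX choroids. In controls every PLX5622 library was above every other, while in *Tgfbr2*ΔEC mice the groups overlapped because mouse 9 without PLX5622 exceeded mouse 19 with it. The log2 difference over both genotypes was 0.35 (SE 0.07, 1.27-fold, adjusted p = 0.00137 in limma).

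*Erg*, the transcription factor, measured 1271, 1546, 1384, 1352 and 1272 in control – PLX and 1781, 1505, 1362, 1723 and 1673 in control + PLX choroids. It measured 1333, 1344, 1479, 1244 and 1132 in *Tgfbr2*ΔEC – PLX and 1577, 1470, 1773, 1511 and 1830 in *Tgfbr2*ΔEC + PLX choroids. The groups overlapped in both genotypes, by mice 12 and 13 with PLX5622 in controls and by mouse 17 in *Tgfbr2*ΔEC mice. The log2 difference was 0.28 (SE 0.07, 1.21-fold, adjusted p = 0.0104 in limma).

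*Egfl7* measured 2434, 2454, 2405, 2204 and 2993 in control – PLX and 2974, 3182, 2937, 3114 and 2744 in control + PLX choroids. It measured 2222, 2216, 2422, 3463 and 3371 in *Tgfbr2*ΔEC – PLX and 3616, 3959, 3398, 3122 and 4067 in *Tgfbr2*ΔEC + PLX choroids. The overlap came from mouse 5 in controls and from mice 9 and 10 in *Tgfbr2*ΔEC mice, which were high for animals without PLX5622. The log2 difference was 0.35 (SE 0.09, 1.27-fold, adjusted p = 0.0146 in limma).

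*Pecam1* measured 2672, 2774, 2999, 2523 and 3328 in control – PLX and 3770, 4071, 3025, 3523 and 3379 in control + PLX choroids. It measured 3061, 3287, 3283, 3220 and 2878 in *Tgfbr2*ΔEC – PLX and 3372, 3704, 3698, 2846 and 4024 in *Tgfbr2*ΔEC + PLX choroids. Mouse 19 had the lowest value of its genotype although it received PLX5622. The log2 difference was 0.24 (SE 0.07, 1.18-fold, adjusted p = 0.0424 in limma), and this call was lost when any 1 of mice 1, 2, 3, 4, 6, 8, 9, 10, 11, 12, 14, 16, 17, 18 or 20 was left out (adjusted p up to 0.0891).

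The other 6 genes did not pass. *Ptprb* came closest, at a log2 difference of 0.33 (95% interval 0.12 to 0.55, adjusted p = 0.0571 in limma), then *Vwf* at 0.34 (0.02 to 0.67) and *Robo4* at 0.28 (–0.02 to 0.58). *Cdh5* (0.13, –0.10 to 0.36), *Emcn* (0.11, –0.02 to 0.24) and *Cd34* (0.07, –0.07 to 0.21) had the smallest estimates. Without mouse 12 the estimates of *Vwf* (0.22, –0.03 to 0.47) and *Emcn* (0.06, –0.04 to 0.16) were lower by over 1.5 times, and *Ptprb* passed (0.39, adjusted p = 0.0133 in limma). *Ptprb* also passed without mouse 7 (0.36) or mouse 13 (0.37). The estimate of *Cdh5* was 0.08 without mouse 10, 11 or 18, and that of *Cd34* was 0.04 without mouse 6 and 0.11 without mouse 10.

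The calls were also read without the choroids highest in neural retina RNA. Without mice 9 and 15, *Esam* (0.37), *Egfl7* (0.41) and *Erg* (0.26) kept their calls and *Pecam1* did not (0.25, adjusted p = 0.0599 in limma). Without mice 6, 9 and 15, *Esam* (0.37, adjusted p = 0.00504) and *Egfl7* (0.38, adjusted p = 0.0129) kept theirs in limma, and *Erg* (0.26, adjusted p = 0.0619) and *Pecam1* (0.24, adjusted p = 0.112) did not.

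**Figure D3:**
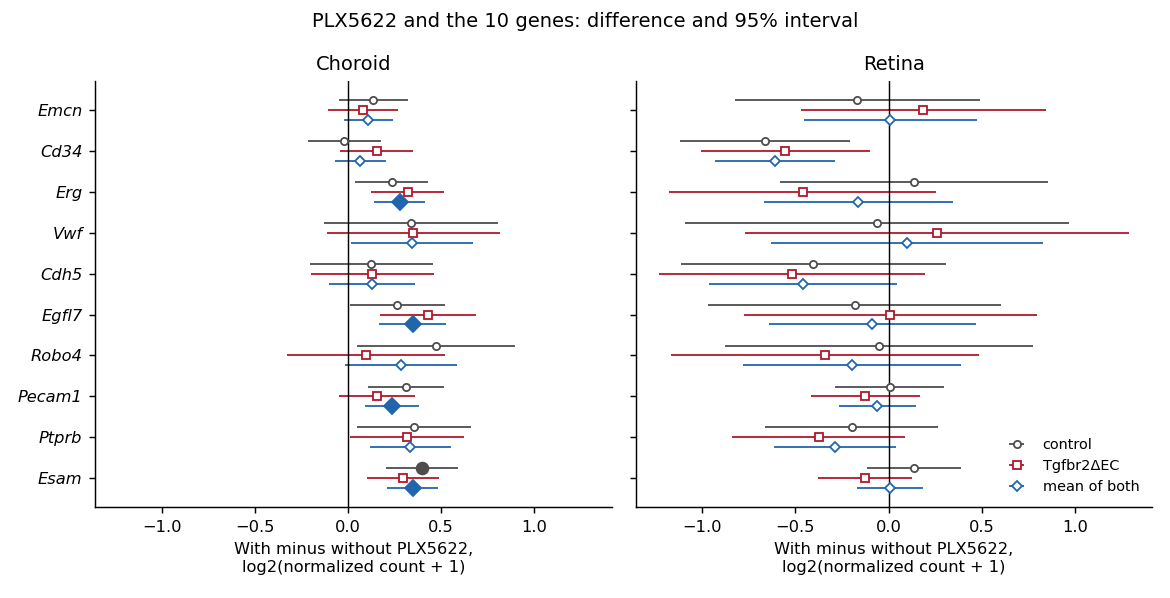
Log2 difference between mice with and without PLX5622 for the 10 genes in choroid and retina, with 95% intervals from the limma fits, for controls (grey circles), *Tgfbr2*ΔEC mice (red squares) and the mean of both genotypes (blue diamonds); filled points passed the test. In choroid all 10 means of both genotypes lie above 0 and 4 passed, and in retina that of *Cd34* lies lowest at –0.61 and none passed.

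Within each genotype, fewer genes passed. In controls *Esam* alone did (log2 difference 0.40, SE 0.09, adjusted p = 0.0146 in limma), beside 0.601% of genes called higher. The call was lost when the compared groups were fitted alone (adjusted p = 0.109 in limma). *Esam* was also the one gene whose groups did not overlap, beside 0.936% of genes. In *Tgfbr2*ΔEC mice 0 of 10 passed, beside 0.559% of genes called higher. The nearest there were *Egfl7* (0.43, adjusted p = 0.0530), *Erg* (0.32, adjusted p = 0.0588) and *Esam* (0.30, adjusted p = 0.0842, all in limma). The effect of the diet was not shown to differ between genotypes. The interaction passed in limma for 0 of 10 genes, beside 0.0% of the 23619 tested, with 1552 at an unadjusted p under 0.05, and its estimates ran from –0.38 for *Robo4* (95% interval –0.98 to 0.22) to 0.17 for *Cd34* (–0.10 to 0.45).

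Other endothelial genes moved in the same choroids. Of the 30 on the list, 13 were called higher and 1 lower over both genotypes (median log2 difference 0.24). *Arhgef15* (0.29), which encodes an endothelial guanine nucleotide exchange factor, *Flt1* (0.31), the gene of VEGF receptor 1, and *Tie1* (0.27) had the lowest p-values among those that rose. *Cd93*, a lectin-like receptor of endothelium and myeloid cells, fell (–0.40, adjusted p = 0.0169 in limma). In controls 4 rose, among them *Sox17* (0.81), *Nos3* (0.54) and *Arhgef15* (0.39), and in *Tgfbr2*ΔEC mice 1 did, *Tek* (0.28).

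Markers of other cells also differed with the diet. In choroid 9 of 10 MP genes fell over both genotypes (median log2 difference –2.84), while 2 of 10 mural cell genes rose, with the summed mural list at 45934–69206 without and 61342–80385 with PLX5622. The mean log2 value of the mural list was 11.88 ± 0.18 without and 12.13 ± 0.12 with PLX5622 (SD over choroids). It was 13.97 ± 0.15 and 14.11 ± 0.19 for 6 melanocyte genes, and 14.65 ± 0.19 and 14.77 ± 0.16 for 6 fibroblast genes. For 6 retinal pigment epithelium genes it was 13.60 ± 0.23 and 13.73 ± 0.25. The summed list of 6 platelet and megakaryocyte genes went from 481–1151 to 95.7–262, with 1 of 5 tested called lower, beside 5.06% of the 23619 genes. Abundant genes weigh most in this sum, so it is not read as a change of the whole list. Of 10 neural retina genes 0 were called, but all 10 estimates were negative (median –1.1, and –2.19 with 1 called lower in *Tgfbr2*ΔEC mice alone), and the summed list ran from 4014 to 138483 without and from 4495 to 134533 with PLX5622. Of 6 erythroid genes 0 were called, but all 6 estimates were positive (median 1.22), and the summed list ran from 324 to 4831 without and from 795 to 5777 with PLX5622. The part of these shifts in the endothelial values was not tested.

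In retina 0 of 10 genes passed for the diet over both genotypes, beside 1.09% of the 23243 genes tested that were called. *Cd34* had the lowest p. It measured 219, 274, 228, 128 and 271 in control – PLX and 140, 88.7, 179, 164 and 129 in control + PLX retinas. It measured 229, 219, 204, 187 and 147 in *Tgfbr2*ΔEC – PLX and 172, 145, 120, 103 and 134 in *Tgfbr2*ΔEC + PLX retinas. All but mouse 4 of the control – PLX group exceeded every control + PLX retina, and mouse 10 of the *Tgfbr2*ΔEC – PLX group lay below 1 of the 5 with PLX5622.

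The log2 difference of *Cd34* in retina was –0.61 (95% interval –0.93 to –0.29, adjusted p = 0.0664 in limma), with –0.66 in controls and –0.55 in *Tgfbr2*ΔEC mice. It passed without mouse 4, 10 or 13 alone and without mice 1, 4 and 9 (–0.74, adjusted p = 0.0190 in limma), but not without mice 1 and 9, the retinas with the most melanocyte RNA (–0.61, adjusted p = 0.167 in limma). The next estimates were *Cdh5* at –0.46 (–0.97 to 0.04) and *Ptprb* at –0.29 (–0.61 to 0.04). For *Esam* (0.01, –0.17 to 0.18) and *Pecam1* (–0.06, –0.27 to 0.15), 2 of the genes that rose in choroid, the retinal estimates lay near 0. Neither gene passed the test of the diet between the tissues given below. Within genotypes, 0 of 10 passed in control retinas (0.736% of genes called) and 0 of 10 in *Tgfbr2*ΔEC retinas (0.516%).

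The other endothelial genes also gave no call in retina (0 of 29 tested, median log2 difference –0.22, 22 estimates negative). *Tek* (–0.36, 95% interval –0.59 to –0.14) and *Myct1* (–1.06, –1.72 to –0.39) had the lowest p-values there. In the same retinas 10 of 10 MP genes fell over both genotypes (median –4.74). Whether loss of MP RNA has a part in the *Cd34* values was not tested.

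The effect of the diet was then compared between the tissues. In the fit that did not pair the 2 tissues of a mouse, it differed for 1 of 10 genes, *Cd34*. Its difference with PLX5622 was 0.68 log2 units higher in choroid than in retina (SE 0.17, adjusted p = 0.0229 in limma), beside 0.543% of 24317 genes called in this direction. Its own differences were 0.07 in choroid and –0.61 in retina, and neither passed on its own. With the mouse as a replicate block, which pairs the 2 tissues of an animal, the adjusted p was 0.0718 and the call was lost. It was also lost without mouse 2, 5, 6, 8, 18 or 19 (adjusted p up to 0.0705) and without mice 1 and 9 (adjusted p = 0.0749 in limma) or mice 6, 9 and 15 (adjusted p = 0.122 in limma). *Ptprb* (0.62, 95% interval 0.23 to 1.02, adjusted p = 0.129) and *Esam* (0.34, 0.13 to 0.55, adjusted p = 0.110) did not pass in limma. On the list of other endothelial genes 2 of 30 did, *Tek* (0.58) and *Tie1* (0.64).

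**Figure D4:**
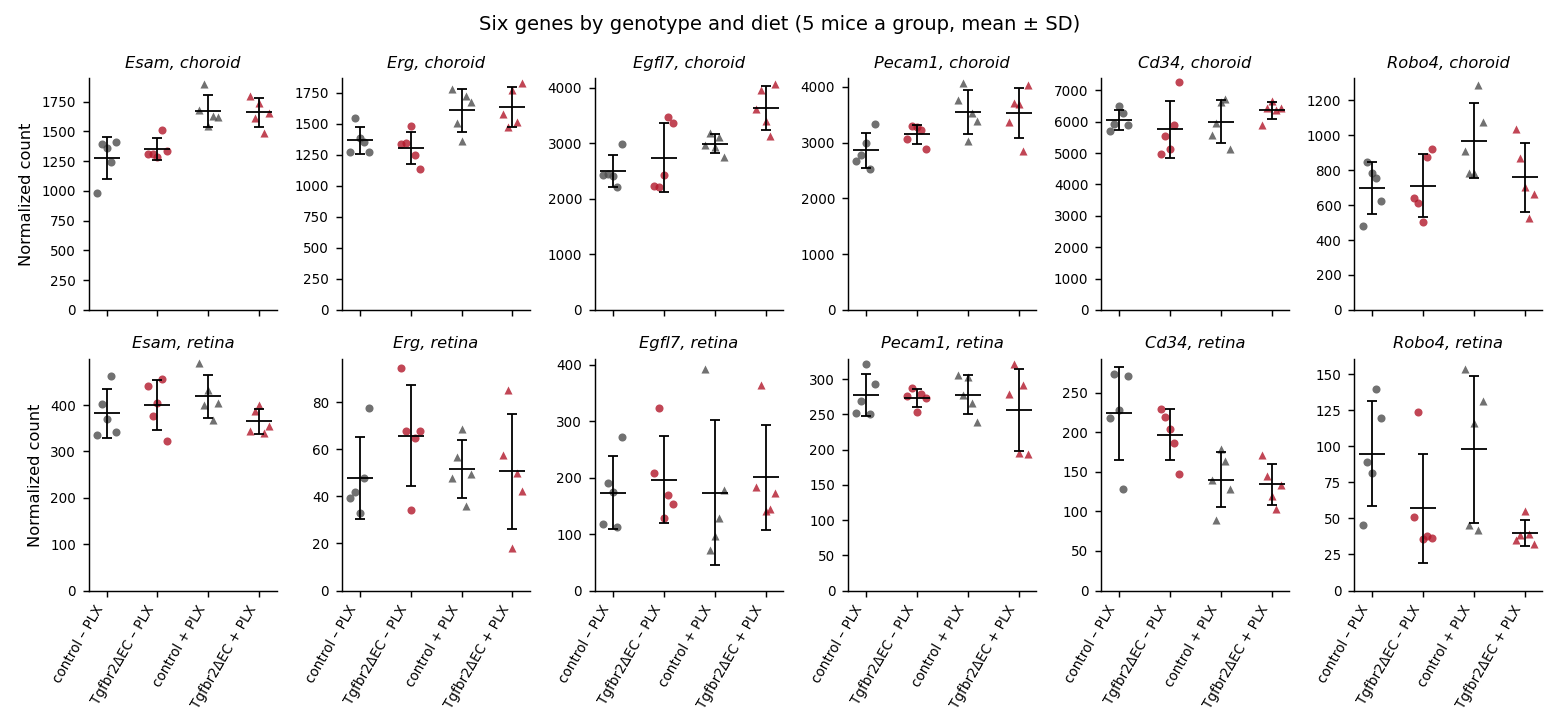
Normalized counts of *Esam*, *Erg*, *Egfl7*, *Pecam1*, *Cd34* and *Robo4* in the 4 groups of choroid and of retina, 5 mice each; points are libraries, and lines mark the group mean with its SD. The control + PLX choroids of *Esam* (1543 to 1899) lie above the control – PLX choroids (986 to 1406), and the *Cd34* retinas with PLX5622 lie mostly below those without.

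Deletion of *Tgfbr2* in endothelium was not accompanied by a passing change of any of the 10 genes. In choroid without PLX5622 the log2 differences (*Tgfbr2*ΔEC minus control) ran from –0.08 for *Cd34* to 0.17 for *Ptprb*, and 0 of 10 passed, beside 0.00423% of genes (1 gene, with 2184 at an unadjusted p under 0.05). Without mice 9 and 15, 132 genes and still 0 of the 10 passed in limma, and without mice 6, 9 and 15, 1 gene and 0 of the 10. With PLX5622 they ran from –0.36 for *Robo4* to 0.28 for *Egfl7*, again with 0 of 10 passing beside 0.00423% of genes (1 gene, 889 at an unadjusted p under 0.05). Over both diets 0 of 10 passed beside 0.00847% of genes (2 genes, 1558 at an unadjusted p under 0.05).

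Several intervals over both diets were narrow. They were –0.12 to 0.14 for *Emcn*, –0.14 to 0.14 for *Cd34*, –0.16 to 0.12 for *Erg*, –0.10 to 0.18 for *Esam* and –0.08 to 0.21 for *Pecam1*, all on the log2 scale. The intervals of *Robo4* (–0.47 to 0.13) and *Vwf* (–0.33 to 0.33) were wider. *Egfl7* was the one choroidal gene whose interval excluded 0 (0.19, 0.01 to 0.37, adjusted p = 0.752 in limma). *Cdh5*, whose promoter drives the Cre, was at 0.09 (–0.15 to 0.32), with 3955, 3260, 3245, 4217 and 4364 in control – PLX and 4186, 4640, 4133, 4158 and 3081 in *Tgfbr2*ΔEC – PLX choroids. The genotypes overlapped for *Cdh5*.

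In retina *Robo4* had the lowest p. It measured 45.5, 88.8, 81.2, 140 and 120 in control – PLX and 154, 45.6, 116, 42.2 and 131 in control + PLX retinas. It measured 51.3, 124, 35.7, 37.5 and 36.5 in *Tgfbr2*ΔEC – PLX and 34.9, 38.5, 55.4, 39.1 and 32.2 in *Tgfbr2*ΔEC + PLX retinas. No library lay between 55.4 and 81.2, with 12 below this gap and 8 above it. Of those 8, mouse 7 alone was a *Tgfbr2*ΔEC mouse, and 3 control retinas lay in the lower set. The gap (0.55 log2 units, beside 0.47 for the widest of *Vwf*) was located in these same values, so the split is a description and not a test of genotype.

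Over both diets the log2 difference of *Robo4* in retina was –0.96 (95% interval –1.54 to –0.37), and after adjustment over all genes it did not pass (adjusted p = 0.928 in limma). The estimate was –0.81 without and –1.1 with PLX5622, and in choroid it was –0.17 (–0.47 to 0.13). The difference between the tissues was 0.78 (0.12 to 1.44, adjusted p = 1.00 in limma). It passed for 0 of 10 genes, beside 0.00411% of genes. In retina 0 of 10 passed, beside 0.0% of genes, for genotype without PLX5622, with it and over both diets in limma, with 758, 629 and 878 genes at an unadjusted p under 0.05. The interaction of genotype and diet passed for 0 of 10 in retina, beside 0.0% of genes, with 567 at an unadjusted p under 0.05.

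The list of 30 other endothelial genes gave 0 calls for genotype in either tissue. In choroid over both diets its median log2 difference was 0.08 with 27 positive estimates, beside 0.02 for the 10 genes and 0.02 for all genes tested. The lowest p-values belonged to *Clec14a* (0.27, 95% interval 0.11 to 0.43), a C-type lectin of endothelium, and *Kdr* (0.22, 0.03 to 0.40), both at an adjusted p of 0.752 in limma. In retina over both diets they belonged to *Podxl* (0.14), which encodes a sialomucin, and *Tal1* (–0.56), which encodes a transcription factor. Several marker lists had estimates mostly of one sign in the choroids without PLX5622, with 0 genes called on any. Of 10 neural retina genes, 10 estimates were positive (median 2.48). Of 6 mast cell genes 5 were negative (median –1.41), as were 5 of 6 erythroid genes (median –1.16) and 6 of 6 skeletal muscle genes (median –0.33). The mean log2 value of 6 lymphatic endothelial genes was 7.16 to 8.44 in the *Tgfbr2*ΔEC and 6.84 to 7.04 in the control choroids, although their summed level overlapped (7600 to 9452 and 7913 to 11417). Of single genes, 2.81% of 23619 did not overlap between these groups. The lymphatic list also holds a gene far higher in retina than in choroid (log2 difference –5.30), so its mean is not read as lymphatic endothelium alone. The part of these lists in the values of the 10 genes was not tested.

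It was then asked whether the genes rise and fall together from mouse to mouse. After group means were subtracted from the log2 values, the 45 pairs of genes had a median Pearson's r of 0.09 in choroid (–0.60 to 0.80) and 0.15 in retina (–0.50 to 0.65), over 20 libraries each. *Cdh5* and *Ptprb* were the highest pair in both tissues. In choroid r was 0.80 (Spearman's rho 0.72, two-sided permutation p = 0.00036 and 0.0028). Adjusted over the 90 pairs of both tissues, r passed (0.0324) and rho did not (0.231). Without the 2 choroids farthest from the *Cdh5* median r was 0.70.

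In retina the same pair had an r of 0.65 and a rho of 0.68 (permutation p = 0.012 and 0.008, adjusted 0.263 and 0.231), and 0.59 without the 2 farthest retinas. No other pair passed.

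Each gene and the mean of the 10 were also set beside 12 marker lists in each tissue, 264 relations in all. The mean of the 10 went with the 30 other endothelial genes in choroid (r 0.89, rho 0.88, permutation p = 7e-05 and 9e-05, adjusted 0.00924 and 0.0119), and r was 0.85 without the 2 farthest choroids. In retina it did so too (r 0.83, rho 0.86, permutation p = 4e-05 and 6e-05, adjusted 0.00924 and 0.0119), and r was 0.84 without the 2 farthest retinas. Both means come from libraries that share their scaling. Of single genes with this list, *Pecam1* (r 0.69, rho 0.77, permutation p = 0.0013 and 0.00027, adjusted 0.0858 and 0.0238) and *Esam* (r 0.60, rho 0.74, permutation p = 0.0017 and 0.00071, adjusted 0.0898 and 0.0469) passed by rho and not by r in choroid. Without the 2 farthest choroids their r was 0.65 and 0.60.

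Of the lists of other cells, 1 relation passed, and by r alone. The 10 neural retina genes had an r of –0.80 with *Ptprb* in retina (rho –0.80, permutation p = 0.00038 and 0.00098, adjusted 0.0334 and 0.0517), and –0.76 without the 2 farthest retinas. The next did not pass. In choroid they were the 6 skeletal muscle genes, which summed to 18718 to 173108, with *Cdh5* (r –0.67, rho –0.55, permutation p = 0.0047 and 0.024, adjusted 0.185 and 0.445, and –0.55 without the 2 farthest choroids). In retina they were the MP genes with *Egfl7* (r 0.64, rho 0.54, permutation p = 0.0049 and 0.022, adjusted 0.185 and 0.445, and 0.61 without the 2 farthest retinas). The mean of the 10 had an r of 0.63 with the MP genes in retina, which did not pass either. The 6 fibroblast genes in choroid had an r of 0.70 with *Cd34* (rho 0.54, permutation p = 0.013 and 0.032, adjusted 0.336 and 0.445), and 0.52 without the 2 farthest choroids. With *Egfl7* they had an r of 0.61 (rho 0.52, permutation p = 0.014 and 0.028, adjusted 0.336 and 0.445), and 0.42 without them. After a list was regressed out of both genes, 1 list at a time, the r of *Cdh5* with *Ptprb* was lowest at 0.70 in choroid (skeletal muscle) and at 0.53 in retina (retinal pigment epithelium).

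The lowest r in choroid was that of *Vwf* and *Ptprb* (–0.60, rho –0.56, permutation p = 0.026 and 0.025, adjusted 0.263 and 0.250), and the same pair was at –0.15 in retina.

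**Figure D5:**
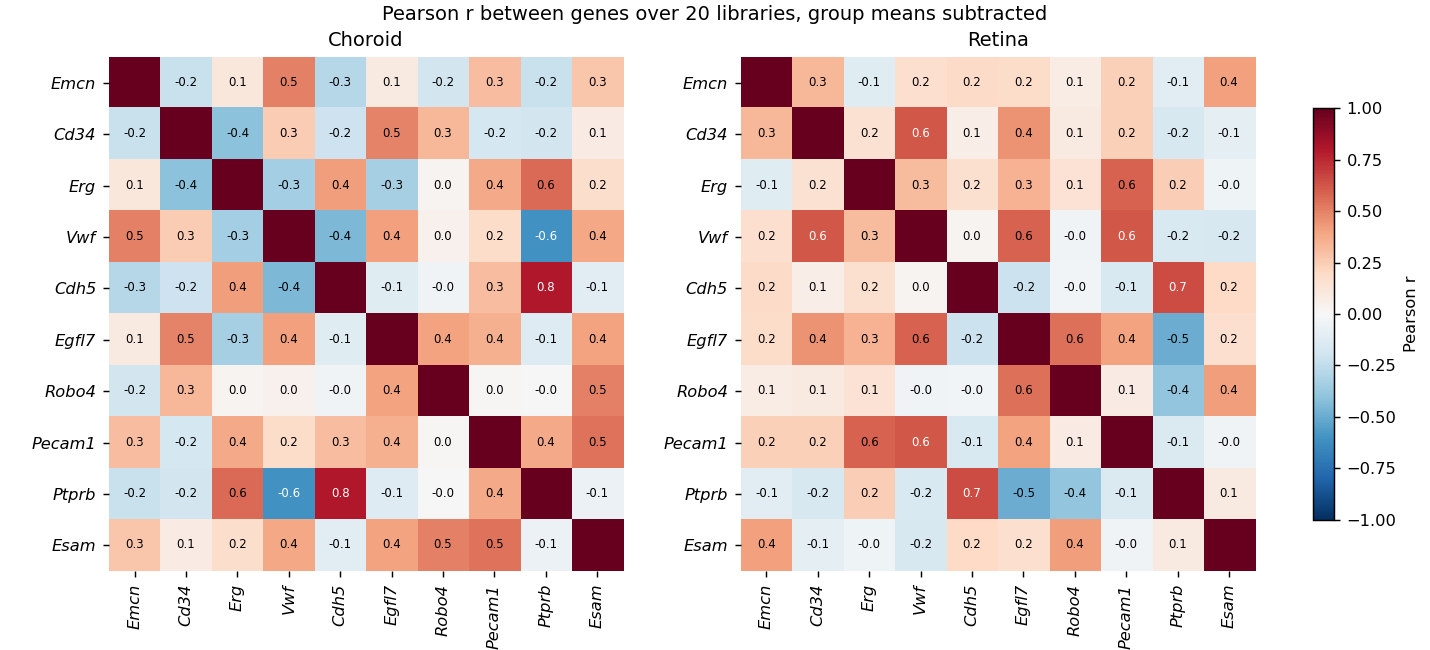
Pearson's r between each pair of the 10 genes over 20 choroids and 20 retinas, after group means were subtracted from log2 values, as a colour grid for each tissue. *Cdh5* with *Ptprb* is the highest cell in both grids (0.80 and 0.65), and the other cells are of both signs, down to –0.60 in choroid and –0.50 in retina.

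The genes whose values over the 20 libraries, with group means subtracted, were most like the mean of the 10 were ranked by Pearson's r among genes with a mean of at least 10. In choroid these were *Tie1* (0.81), *Oxa1l* (0.79), the pseudogene *Rpl19-ps3* (0.78), *Gsdmd* (0.76) and *Gstm6* (0.75) of 17587 genes. In retina they were *Ifi27l2a* (0.89), *Ifitm3* (0.88), *Vwa1* (0.83), *Trim30d* (0.82) and *Mlc1* (0.82) of 17170 genes. *Tie1* alone among them is on the list of other endothelial genes. These are the highest of many ranked values from libraries that share their scaling, and *Rpl19-ps3* shares sequence with its parent gene.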

How the data were processed

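RNA was sequenced (polyA, stranded, single reads) from retina and central choroid of 20 mice. The authors quantified reads with Salmon 1.10.1 on GRCm39 after FastQC 0.11.5, imported them with tximport and deposited DESeq2 1.36.0 normalized counts, a signal per gene that is not whole. Whole reads were not recovered, so read depth is unknown and no count test was run. Both tissues had been scaled together (median ratio to the geometric mean 1.0082 for each library), and each of the 40 columns matched 1 sample. Symbols and positions came from GENCODE release 39, and promoter windows from RefSeq (GRCm38.p6).

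limma 3.58.1 (R 4.3.3) with a mean-variance trend was fitted to log2(normalized count + 1), keeping genes whose mean was 1 or more, in each tissue (4 groups) and over both (8 groups), without covariates, and p-values were adjusted over all genes tested by the Benjamini-Hochberg method. Fold changes are on this scale and understate those of low genes. The study's own tests included sex and an estimated neuronal share, which the labels do not give; scores from marker genes stood in as alternatives. Intervals are 95%. Correlations used 100000 permutations of libraries within groups. Fits were tested on simulated data.

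Beyond the 10 genes, the text names, of the 30 other endothelial genes, at most the 3 called ones with the lowest p in each direction or, with none called, the 2 with the lowest p, and the 5 genes most like the mean of the 10; *Kdr* in the tissue comparison was named after its value was seen. Members and lists were chosen with earlier results of these data known. Mouse numbers pair the tissues, being part of the library names, and sex-linked genes matched in 20 of 20 numbers (pair correlations –0.2 to 0.35, median 0.18). Alternatives were other pseudocounts, filters, scalings, covariate scores, variance moderation, smaller fits, the replicate block and leaving out mice.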

Additional observations from a re-analysis of the deposited data

Results flagged for a closer look

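Among 80 groups of 5 libraries (10 genes, 8 groups), 4 held a library far from the other 4, and 4 are expected by chance at 1 in 20. *Emcn* in the control + PLX choroids measured 5690 in mouse 12 and 3838 to 4340 in the others. *Esam* in the *Tgfbr2*ΔEC – PLX choroids measured 1509 in mouse 9 and 1287 to 1336 in the others, and this choroid is also the one with the most neural retina RNA. *Egfl7* in the *Tgfbr2*ΔEC + PLX retinas measured 364 in mouse 17 and 140 to 183 in the others. *Robo4* in the *Tgfbr2*ΔEC – PLX retinas measured 124 in mouse 7 and 35.7 to 51.3 in the others. The 4 libraries came from 4 different mice.

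The effect of PLX5622 on *Cd34* differed between the tissues by 0.68 log2 units in the unpaired test of that difference (choroid minus retina, adjusted p = 0.0229 in limma). With the replicate block it did not pass (adjusted p = 0.0718 in limma).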

How the results depend on the processing

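All 10 genes were called higher in choroid under each of 12 alternatives and without each mouse, the replicate block included; scaling to the same sum or the same upper quartile moved the median of all genes in this comparison by –0.12 and –0.16. Of 170 estimates (10 genes in 17 comparisons), 49 changed sign under at least 1 alternative or left-out mouse. None of the 49 was called, and the farthest from 0 was –0.29. For the diet in control choroids, fitting the compared groups alone left 0 genes called. In *Tgfbr2*ΔEC choroids, 2 were called with a minimum mean of 10, 2 with upper-quartile scaling (*Egfl7* and *Erg* in both), 1 with the groups fitted alone (*Esam*) and 1 without mice 9 and 15 (*Egfl7*). Over both genotypes in choroid, 3 to 5 were called under every alternative but 1, leaving out mice 6, 9 and 15 (2 genes). For the diet in retina over both genotypes, 1 was called without mice 1, 4 and 9 (*Cd34*) and 0 without mice 1 and 9. The tissue by diet call was lost without mice 1 and 9 (0 genes), without mice 6, 9 and 15 (0 genes) and with the replicate block (0 genes), which changed no other call. Leaving out 1 mouse gave 1 to 2 genes for the diet in control choroids (2 without mouse 13), 0 to 1 in *Tgfbr2*ΔEC choroids (1 without mouse 1, 5, 8, 9, 10, 13, 15 or 19), 3 to 5 over both genotypes, 0 to 1 in control retinas (1 without mouse 4), 0 to 1 in retina over both genotypes and 0 to 2 for tissue by diet (2 without mouse 7). The cause of these shifts was not tested. Counts for genotype, genotype by diet and tissue by genotype stayed at 0 under every alternative; without mice 9 and 15, 132 genes, none of the 10, were called for genotype in choroid without PLX5622. Leaving out mice 9 and 15, mice 6, 9 and 15, mice 1, 4 and 9 or mice 1 and 9 was chosen after seeing the data. Groups of different genotype or diet share no mouse numbers, so no paired fit applies to them. Without read counts, counting error at low retinal values could not be separated from the spread between mice.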
